A study of Drosophila melanogaster with 18 samples.

Results

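The muscle glutamate receptor genes of Drosophila melanogaster were followed across 18 RNA-seq libraries. The members were chosen by symbol: the 5 receptor subunit genes GluRIIA, GluRIIB, GluRIIC, GluRIID and GluRIIE, and Neto, which encodes the auxiliary protein of the receptor. All 6 were present among the 15682 gene symbols counted, GluRIID under its older symbol KaiRIA, and all 6 passed the filter on low counts in each comparison. The study asked what the drug RU486 (mifepristone) does by itself to gene expression in flies that carry a GeneSwitch driver. GeneSwitch is a form of the Gal4 activator made dependent on RU486 through a steroid receptor domain. Thoraces were taken from male Act88F-GS-Gal4 flies, whose GeneSwitch is under the promoter of the flight muscle actin Act88F, and from male w1118 flies, which carry no driver. Heads were taken from male elav-GS-Gal4 flies, whose driver is under the pan-neuronal elav promoter. Flies of each stock were fed 100 µM RU486 for 10 days, against ethanol alone in their controls, and none of the labels names a transgene under Gal4 control. This gave 6 groups of 3 libraries: Act88F-GS-Gal4 thorax with RU486 and with ethanol, w1118 thorax with RU486 and with ethanol, and elav-GS-Gal4 head with RU486 and with ethanol. The labels do not say whether replicates came from separate cultures of flies, so the p-values measure the spread between these samples, which may be partly technical.

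At the insect neuromuscular junction the motor neuron releases glutamate, and the muscle membrane opposite the release site carries ionotropic receptors of the kainate type. In the Drosophila larva each channel is a tetramer built from GluRIIC, GluRIID and GluRIIE, which are needed in every channel, together with GluRIIA or GluRIIB, which compete for the remaining place. Channels with GluRIIA pass more current because those with GluRIIB desensitise faster, and Neto is needed to gather the channels at the synapse.

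The reference annotation of build BDGP6.54 (later than the build of the counts) places GluRIIA on chromosome 2L at 5555072-5558994 and GluRIIB at 5559342-5563502, on the same strand and 347 bases further on. GluRIIC lies on the same arm at 914086-917805. GluRIIE (20644154-20648716) and GluRIID (20648595-20652450) are neighbours on the minus strand of 3R and share 122 exonic bases, 3.54% of the exon length of GluRIIE and 3.96% of that of GluRIID. GluRIIE also overlaps Lrrk on the opposite strand, and GluRIIA shares 66 exonic bases with CG14017 on its own strand. Whether the counting used strand is not given in the sources used here, so a small part of these counts is uncertain. Neto spans 13445903-13527282 on the X chromosome, and this annotation gives it exons that the counts list under a separate symbol, CG15753. The Neto values below are those of the symbol Neto alone.

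The libraries held between 34020840 and 96176923 reads counted on genes. GluRIIA had 334 to 1322 reads per library, whereas GluRIIB had 8 to 61, so that counting error alone is large for GluRIIB. Levels within 1 stock are given as CPM (depth-scaled counts) after TMM scaling of the 6 libraries of that stock. Levels compared between genes are given as FPKM, which divides by exon length as well and uses 1 TMM scaling over all 18 libraries. The 22 muscle marker genes were all detected in every group, with summed levels of 24000 to 50800 CPM in thorax libraries and 6830 to 12500 CPM in head libraries. Muscle RNA was thus present in the libraries labelled thorax, and the head libraries held it at a lower level beside 68100 to 87500 CPM of photoreceptor markers. In bulk tissue, muscle cell number, receptor mRNA per cell and receptor mRNA of other cells cannot be separated as sources of a gene's level. One library stood apart: Act88F-GS-Gal4 control replicate 1 held 2250 CPM of the 12 photoreceptor markers, against 212 and 246 CPM in the other controls of this stock and 256 to 338 CPM in its RU486 libraries. The tests in Act88F-GS-Gal4 thoraces are also given without it. The 43 testis markers varied between replicates in w1118 thoraces, 173 to 3560 CPM with RU486 and 2310 to 4530 CPM in controls, and in elav-GS-Gal4 heads, 191 to 265 CPM with RU486 and 207 to 5350 CPM in controls. The share of reads not assigned to a gene was 19.7%, 18.6% and 19.8% in Act88F-GS-Gal4 thoraces with RU486. In their controls it was 23.7%, 27.6% and 29.9%, without overlap. It includes reads on no gene, shared by several genes, unaligned or not uniquely aligned.

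The 5 subunit genes kept 1 order per exon length in 18 of 18 libraries. GluRIIA was highest, followed by GluRIID, GluRIIC, GluRIIE and GluRIIB. In Act88F-GS-Gal4 thoraces with RU486 they averaged 4.49 ± 0.177, 3.59 ± 0.236, 3.24 ± 0.193, 1.04 ± 0.0265 and 0.167 ± 0.0216 FPKM in that order (SD, n = 3). The controls of this stock averaged 3.59 ± 0.199, 2.71 ± 0.243, 2.21 ± 0.493, 0.944 ± 0.0436 and 0.0933 ± 0.00567 FPKM. GluRIIB made up only 2.32% to 5.50% of the summed FPKM of GluRIIA and GluRIIB, and this share overlapped between tissues. The alternative subunits GluRIIA and GluRIIB together reached 1.41 to 2.82 times the mean of the obligatory subunits GluRIIC, GluRIID and GluRIIE. Per exon length, the transcripts of the subunits were not present in equal amounts.

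**Figure D1:**
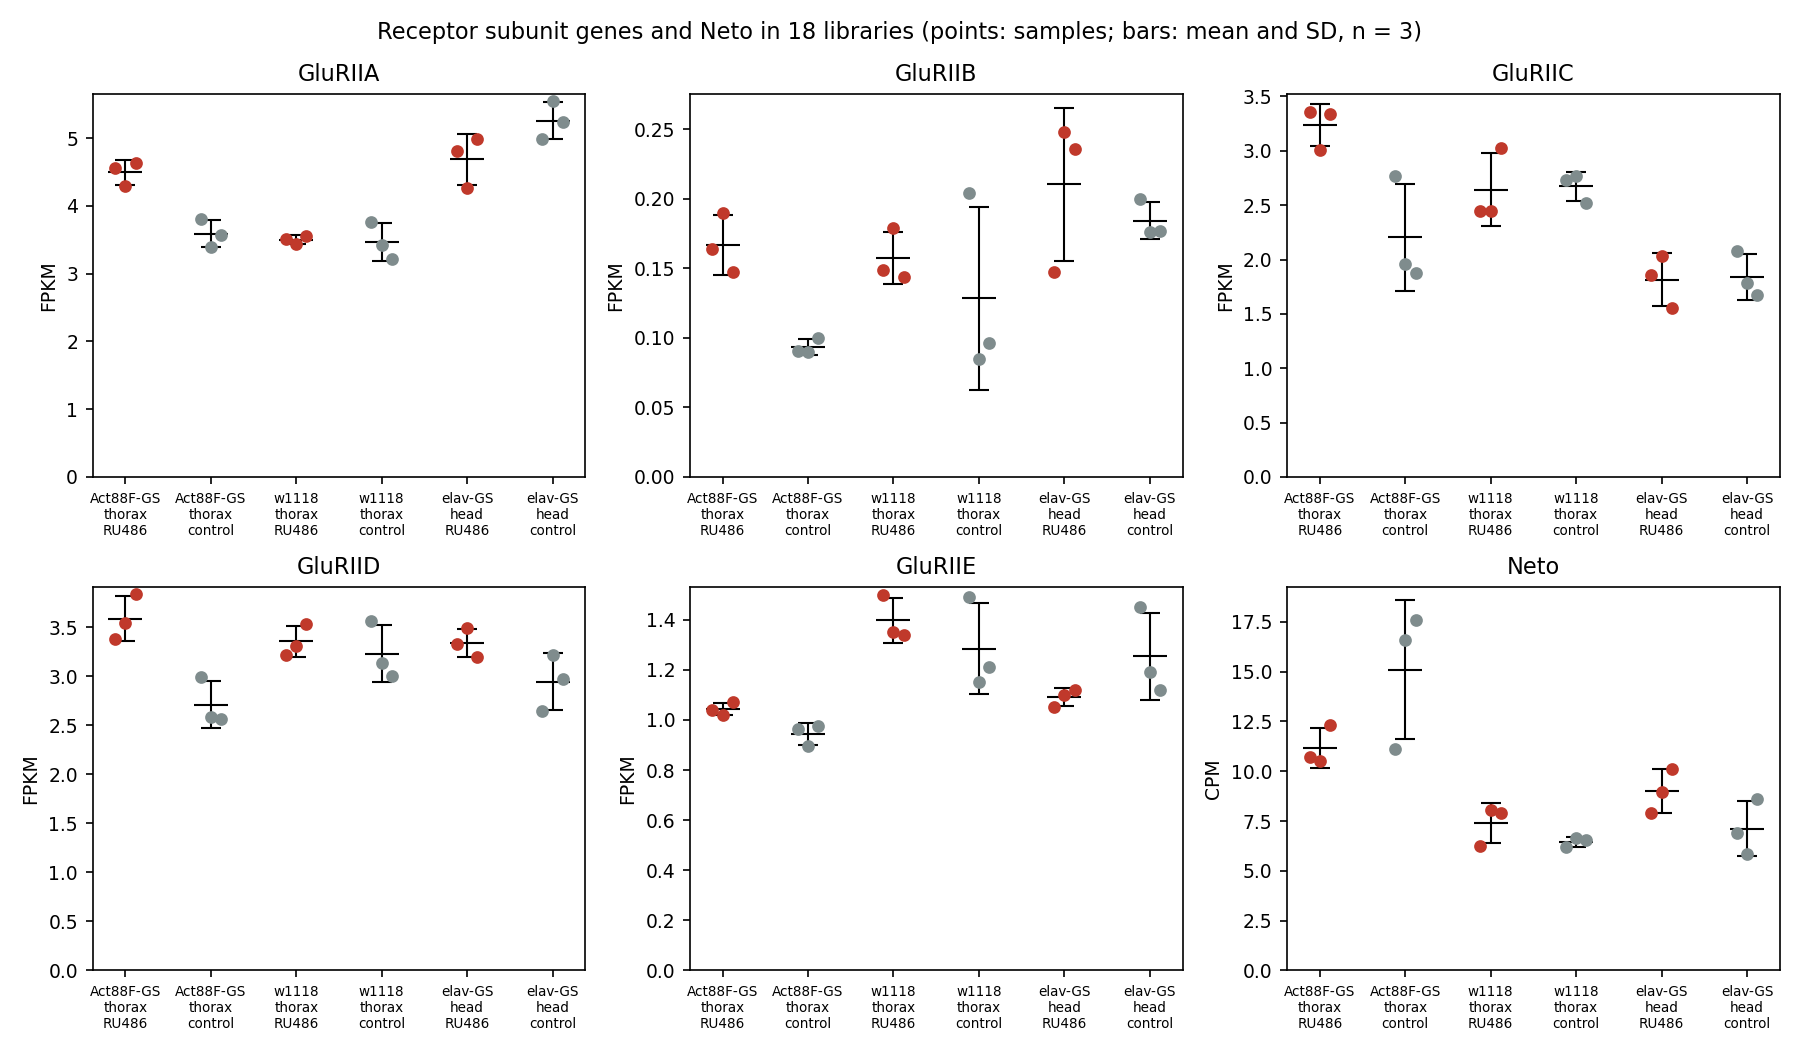
Levels of the 5 receptor subunit genes (FPKM) and of Neto (CPM) in the 6 groups, with 1 point per library and bars for the mean and SD of 3. GluRIIA has its highest group means in heads (4.69 and 5.26 FPKM), GluRIIB is the lowest subunit in every library, and Neto is highest in Act88F-GS-Gal4 thorax controls, at 11.1 to 17.6 CPM.

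Across groups, the mean level of GluRIIA was highest in heads. It averaged 4.69 ± 0.382 FPKM in elav-GS-Gal4 heads with RU486 and 5.26 ± 0.277 FPKM in their controls. In w1118 thoraces it averaged 3.50 ± 0.0676 FPKM with RU486 and 3.46 ± 0.277 FPKM in controls. Ordered by mean, head controls, head RU486 and Act88F-GS-Gal4 RU486 overlapped as neighbours, the last lay above Act88F-GS-Gal4 controls in every library, and the 3 lowest groups overlapped.

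GluRIIC had another order. It was highest in Act88F-GS-Gal4 thoraces with RU486 (3.01 to 3.36 FPKM), above every library of the next group by mean, w1118 controls (2.52 to 2.77 FPKM), though 1 w1118 RU486 library reached 3.03 FPKM and overlapped it, and lowest in heads, where it averaged 1.82 ± 0.241 FPKM with RU486 and 1.84 ± 0.211 FPKM in controls. GluRIID varied least in this order: its group means ran from 2.71 to 3.59 FPKM, and each group overlapped its neighbour. GluRIIB group means ran from 0.0933 to 0.211 FPKM, again with every neighbour overlapping. GluRIIE averaged 1.40 ± 0.0931 FPKM in w1118 thoraces with RU486 and 1.28 ± 0.182 FPKM in their controls, above the Act88F-GS-Gal4 thoraces.

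Control heads were compared with control thoraces in 1 edgeR quasi-likelihood fit of the 9 control libraries, with Benjamini-Hochberg adjustment over the 13121 genes tested. Tissue, stock and library preparation cannot be told apart in these comparisons. Among all genes, 27.0% were higher and 20.2% lower in control heads than in w1118 control thoraces, 47.2% in all. Groups did not overlap in 30.4% of genes with heads above and in 28.7% with heads below. Of the 5 subunit genes, GluRIIA was higher and GluRIIC lower. Control heads had 4.99, 5.54 and 5.24 FPKM of GluRIIA, against 3.76, 3.42 and 3.21 FPKM in w1118 control thoraces, and the groups did not overlap. The log2 fold change was 0.60 (SE 0.0902, adjusted p = 0.001). For GluRIIC, control heads had 2.08, 1.78 and 1.67 FPKM, against 2.73, 2.77 and 2.52 FPKM in w1118 control thoraces, again without overlap, and the log2 fold change was -0.53 (SE 0.19, adjusted p = 0.047). The GluRIIA call held in all 11 other settings and all 9 fits with a library left out, while the GluRIIC call held in 7 of the 11 and, of the 9, only without head control replicate 1 or without Act88F-GS-Gal4 control replicate 1. GluRIIB (0.52), GluRIID (-0.13), GluRIIE (-0.0308) and Neto (0.14) did not pass the test. The median over all genes was -0.15. Of the 22 muscle markers, 21 were called lower in control heads than in w1118 control thoraces, with a median of -2.13. Which cells carried the receptor mRNA in heads was not tested.

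Against Act88F-GS-Gal4 control thoraces, 45.0% of genes were higher and 21.7% lower in control heads, 66.7% in all, and the median over all genes was 0.36. GluRIIA was the only subunit gene called, at 4.99 to 5.54 FPKM in control heads and 3.40 to 3.80 FPKM in Act88F-GS-Gal4 control thoraces (log2 fold change 0.55, SE 0.0903, adjusted p = 0.00144, and 0.59 with adjusted p = 0.00318 without Act88F-GS-Gal4 control replicate 1). Since 55.9% of the genes tested had a smaller log2 fold change, this difference lies close to the middle of all genes. Heads also lay above without overlap, as did 36.2% of all genes, for GluRIIB (0.98, SE 0.41, adjusted p = 0.068) and GluRIIE (0.41, SE 0.20, adjusted p = 0.109), neither of which passed the test. Neto was lower in control heads without overlap, as were 24.4% of all genes, at 6.92, 5.84 and 8.60 CPM on the scale common to all libraries, against 11.1, 16.6 and 17.6 CPM in Act88F-GS-Gal4 control thoraces (log2 fold change -1.08, SE 0.21, adjusted p = 0.00345). Without Act88F-GS-Gal4 control replicate 1 it was -1.26 (adjusted p = 0.00114). This call was lost in 1 of 11 other settings, the unequal-variance test on log2(FPKM + 1) (-0.49 on that scale, adjusted p = 0.0706).

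Neto also set the control thoraces apart from each other. Act88F-GS-Gal4 control thoraces had 11.1, 16.6 and 17.6 CPM on the common scale, against 6.18, 6.67 and 6.55 CPM in w1118 control thoraces, so that every library of the driver stock lay above every w1118 library, as was the case for 27.4% of all genes. The log2 fold change was 1.22 (SE 0.21, adjusted p = 0.00435), and 1.40 without Act88F-GS-Gal4 control replicate 1 (adjusted p = 0.00221). It did not pass in 2 of 11 other settings, the unequal-variance test (0.52 on its log2(FPKM + 1) scale, adjusted p = 0.0808) and the fit with testis marker level as a covariate (0.88, adjusted p = 0.123). In this comparison 19.5% of genes were called higher and 32.8% lower, 52.3% in all, and 95.6% of the genes tested had a smaller log2 fold change than Neto. The neighbouring symbol CG15753, part of Neto in the later annotation, went the same way, with a log2 fold change of 1.44 (SE 0.28, adjusted p = 0.00668), and of 1.63 without Act88F-GS-Gal4 control replicate 1 (adjusted p = 0.00617). None of the 5 subunit genes was called by edgeR, none had an unadjusted p under 0.05, and DESeq2 called none. GluRIID and GluRIIE did not overlap and were lower in Act88F-GS-Gal4 controls, as were 42.3% of all genes tested. Their log2 fold changes were -0.25 (SE 0.13, adjusted p = 0.135) and -0.44 (SE 0.20, adjusted p = 0.106).

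The ratio between members of the same library does not depend on scaling. The log2 ratio of GluRIIA to GluRIIC in FPKM ran from 1.07 to 1.68 in head libraries and from 0.23 to 0.92 in thorax libraries, with no overlap in 18 libraries. This ratio and the next were formed after the levels had been seen and are given without a test. The log2 ratio of GluRIID to GluRIIE averaged 1.78 ± 0.0777 in Act88F-GS-Gal4 thoraces with RU486 and 1.52 ± 0.13 in their controls, and every RU486 library lay above every control library. In w1118 thoraces it averaged 1.27 ± 0.15 with RU486 and 1.34 ± 0.0929 in controls, and the groups overlapped. In elav-GS-Gal4 heads it averaged 1.62 ± 0.0839 with RU486 and 1.23 ± 0.32 in controls, again with every RU486 library above every control library, and head control replicate 1 was the lowest of all at 0.86.

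**Figure D2:**
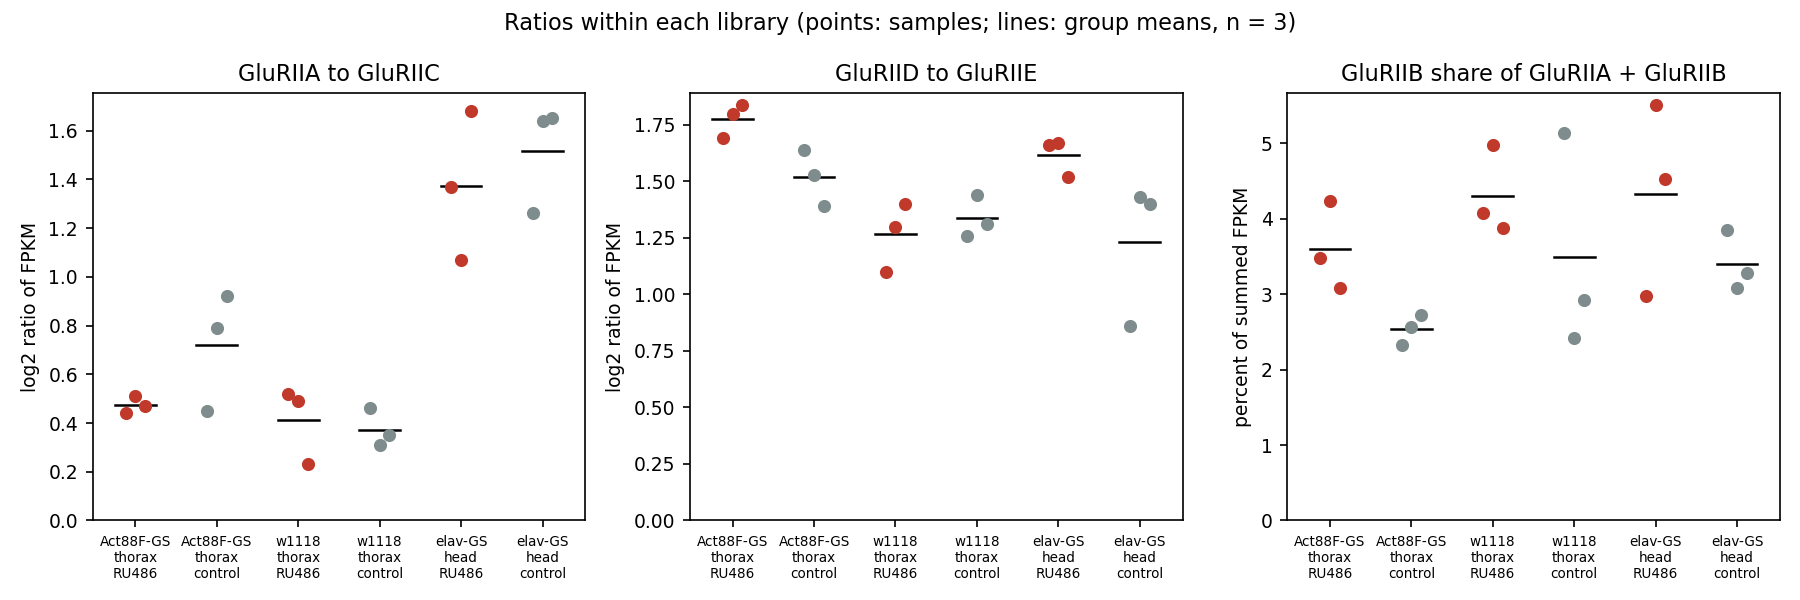
Ratios between receptor genes within each library, with 1 point per library and a line at the mean of 3: the log2 ratio of GluRIIA to GluRIIC, the log2 ratio of GluRIID to GluRIIE, and GluRIIB as a percent of GluRIIA plus GluRIIB, all from FPKM. The GluRIIA to GluRIIC ratio is 1.07 to 1.68 in head libraries and 0.23 to 0.92 in thorax libraries, and the GluRIIB share stays between 2.32% and 5.50%.

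In Act88F-GS-Gal4 thoraces, GluRIIA and GluRIID were higher with RU486, at 1.18 and 1.25 times the control level. In this stock 12.6% of the 10600 genes tested were called higher with RU486 and 19.9% lower, and the median log2 fold change over all genes was 0.0101. The call for 2 of the 5 subunit genes stands against that background. In 4 of the 5 every RU486 library lay above every control library, against 22.4% of all genes tested, and in none did every RU486 library lie below, against 27.4%. All 5 log2 fold changes were above 0, with a median of 0.32.

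GluRIIA, the subunit of the slowly desensitising channel, had 13.3, 12.6 and 13.8 CPM with RU486, against 11.7, 10.7 and 11.1 CPM in controls. The groups did not overlap, and the log2 fold change was 0.24 (SE 0.0739, adjusted p = 0.0456). GluRIID, an obligatory subunit, had 9.34, 9.84 and 10.9 CPM with RU486, against 8.76, 7.67 and 7.56 CPM in controls. Here too the groups were apart, and the log2 fold change was 0.32 (SE 0.0982, adjusted p = 0.0465).

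The other 3 subunit genes did not pass the test. GluRIIB, the subunit of the fast desensitising channel, had 0.436, 0.506 and 0.399 CPM with RU486 (29, 32 and 14 reads), against 0.253, 0.256 and 0.282 CPM in controls (13, 8 and 10 reads). The groups did not overlap, and this largest log2 fold change of the 5, 0.76, had the largest standard error, 0.27 (adjusted p = 0.0756). GluRIIC, an obligatory subunit, had 9.06, 8.17 and 9.23 CPM with RU486, against 7.92, 5.69 and 5.42 CPM in controls, where the high value is replicate 1 (log2 fold change 0.47, SE 0.16, adjusted p = 0.0642). GluRIIE had 3.23, 3.16 and 3.39 CPM with RU486, against 3.15, 2.97 and 3.22 CPM in controls, which overlapped (log2 fold change 0.0646, SE 0.12, adjusted p = 0.702).

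Neto went the other way without passing the test. It had 9.60, 9.43 and 11.3 CPM with RU486, against 10.5, 16 and 16.9 CPM in controls. Control replicate 1, the library with photoreceptor RNA, lay among the RU486 libraries, while the other controls lay above all of them. This library was also the lowest of these controls in every other marker sum. Its fat body markers were at 4900 CPM, against 6700 and 6510 CPM, and its haemocyte markers at 521 CPM, against 820 and 694 CPM. Whether the photoreceptor RNA accounts for its Neto level was not tested. The log2 fold change of Neto was -0.52 (SE 0.19, adjusted p = 0.081). Without control replicate 1 it was -0.71 (adjusted p = 0.00602), and CG15753 gave -0.73 (adjusted p = 0.0221). The same fit called 3 of the 5 subunit genes: GluRIIA at 0.28 (adjusted p = 0.0354), GluRIIC at 0.67 (adjusted p = 0.0058) and GluRIID at 0.39 (adjusted p = 0.0269). Over all genes this fit called 1347 higher and 2296 lower, beside 1332 and 2112 in the main fit.

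The calls for GluRIIA and GluRIID were close to the threshold. Each held in 6 of 11 other settings and in 1 of 6 fits with a library left out, the fit without control replicate 1, and no left-out library turned a direction. Total counts in place of TMM moved the median over all genes by 0.17 and gave 0.41 for GluRIIA and 0.49 for GluRIID.

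**Figure D3:**
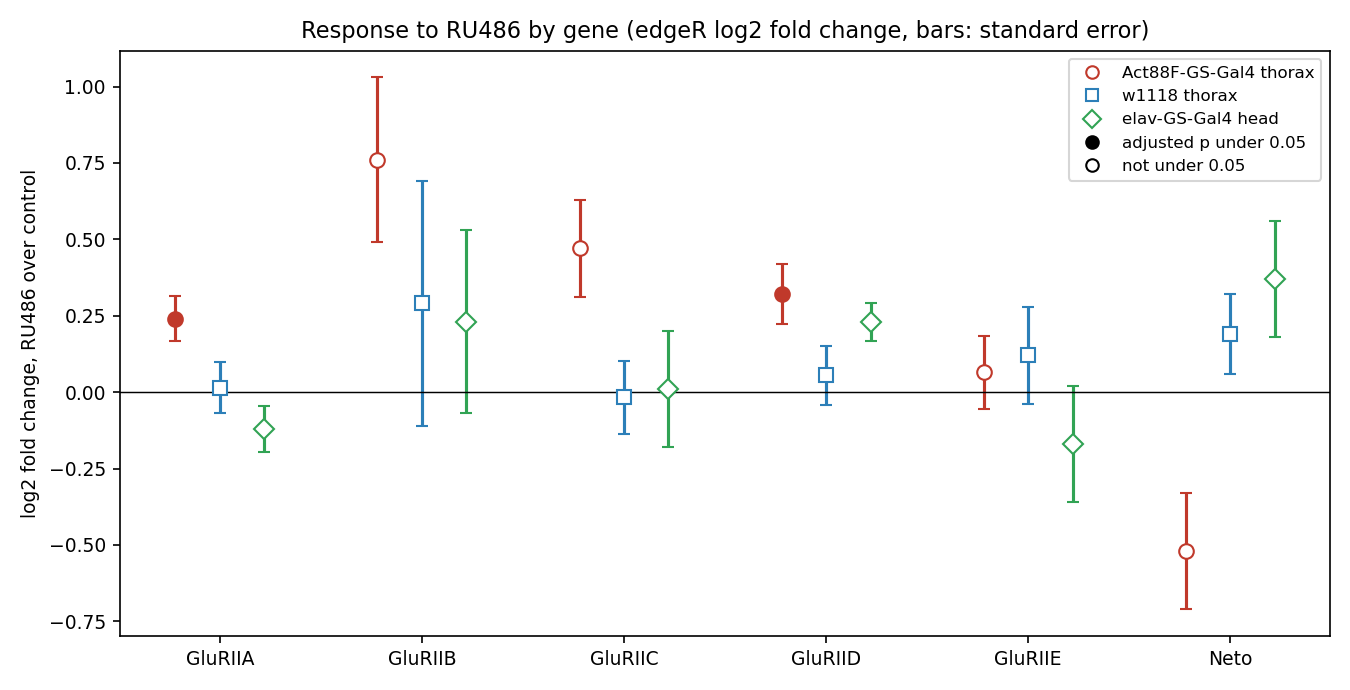
Log2 fold change of RU486 over control for each gene and stock from edgeR, with bars for the standard error and filled symbols where the adjusted p is under 0.05. In Act88F-GS-Gal4 thoraces GluRIIA (0.24) and GluRIID (0.32) are filled and Neto lies below 0 (-0.52, open), and every symbol of w1118 thoraces and elav-GS-Gal4 heads is open.

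Some cell type markers differed between the same libraries. The summed muscle markers were at 24000, 26400 and 41300 CPM with RU486, against 46200, 50800 and 50300 CPM in controls, without overlap. Of the 22, 7 were called lower and 2 higher. The called marker counts here stand beside 19.9% of all genes called lower, 12.6% higher and 32.5% in either direction. Act88F itself, the flight muscle actin, was at 252, 356 and 1050 CPM with RU486, against 2640, 2310 and 2330 CPM in controls. In w1118 thoraces, scaled apart, Act88F was at 200, 163 and 313 CPM with RU486 and 148, 173 and 190 CPM in controls. The muscle sums there were 27400 to 32500 CPM and 24800 to 28500 CPM. Among the thorax groups, the Act88F-GS-Gal4 controls were thus highest in both. The driver of this stock was built with genomic sequence around the Act88F transcription start. Whether driver transcripts add reads to Act88F was not tested. The 6 haemocyte markers summed to 818 to 990 CPM with RU486 and to 521 to 820 CPM in controls, with overlap, and 1 of them was called higher. The 11 neuronal markers summed to 1850 to 2270 CPM and 1720 to 1970 CPM, also with overlap, and none of them was called. The part of these differences, and of the share of reads not assigned to a gene, in the receptor gene values was not tested. RU486 replicate 3 had the highest muscle sum and the highest neuronal sum of its group. It also had the highest GluRIIA, GluRIIC, GluRIID, GluRIIE and Neto, and the lowest GluRIIB.

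In w1118 thoraces, which carry no GeneSwitch, no subunit gene was called. edgeR called 0 of 12980 genes (0% higher and 0% lower) in this stock, with 1194 genes at an unadjusted p under 0.05, whereas DESeq2 called 195 higher and 95 lower. None of the 5 subunit genes had an unadjusted p under 0.05 in edgeR and none was called by DESeq2. GluRIIA had 12, 11.7 and 12.2 CPM with RU486, against 12.9, 11.7 and 11.0 CPM in controls (log2 fold change 0.0147, SE 0.083, adjusted p = 0.949). GluRIID had 10.4, 10.7 and 11.5 CPM with RU486, against 11.5, 10.1 and 9.72 CPM in controls (log2 fold change 0.055, SE 0.0969, adjusted p = 0.805). Both genes had the controls spread around the RU486 libraries. The remaining log2 fold changes were 0.29 for GluRIIB (SE 0.40), -0.0168 for GluRIIC (SE 0.12), 0.12 for GluRIIE (SE 0.16) and 0.19 for Neto (SE 0.13), with adjusted p from 0.622 to 0.96, and all groups overlapped, where 9.66% of all genes had every RU486 library above and 10.1% below.

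In elav-GS-Gal4 heads no member was called either. Of the 10653 genes tested, 5.0% were higher with RU486 and 0.779% lower, 5.78% in all. With a library left out, the 533 genes called higher became 0 to 870, and the 83 called lower became 0 to 2511. GluRIID came closest to a call, with 10.7, 11.3 and 10.3 CPM with RU486, against 9.18, 9.26 and 9.0 CPM in controls. These groups did not overlap, as was the case for 18.7% of all genes in that direction, and the log2 fold change was 0.23 (SE 0.0616, unadjusted p = 0.00934 and adjusted p = 0.0982). GluRIIA had 16.3, 14.6 and 16.9 CPM with RU486, against 18.3, 16.8 and 16.8 CPM in controls, with a log2 fold change of -0.12 (SE 0.0753, adjusted p = 0.381). The control libraries of GluRIIA sat at the upper end, and the groups overlapped at 16.8 and 16.9 CPM. GluRIIB (0.23, SE 0.30), GluRIIC (0.0111, SE 0.19), GluRIIE (-0.17, SE 0.19) and Neto (0.37, SE 0.19) overlapped between groups. DESeq2 called 0 of the 5 subunit genes, and edgeR gave 1 of them an unadjusted p under 0.05. Summed muscle markers were at 8880 to 12500 CPM with RU486 and 6830 to 7800 CPM in head controls, and their part in the GluRIID value was not tested.

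Whether the response differed between stocks was tested as a difference of the log2 fold changes. Between Act88F-GS-Gal4 and w1118 thoraces, 4.29% of 13019 genes were called more positive and 11.9% more negative, and 0 of the 5 subunit genes were called by edgeR or by DESeq2, with 1 (GluRIIC) at an unadjusted p under 0.05. The difference was 0.22 for GluRIIA (SE 0.0971, adjusted p = 0.169), 0.26 for GluRIID (SE 0.13, adjusted p = 0.222) and 0.48 for GluRIIC (SE 0.21, adjusted p = 0.164). For Neto it was -0.72 (SE 0.24, adjusted p = 0.075). Without Act88F-GS-Gal4 control replicate 1, GluRIIC (0.67, adjusted p = 0.0201) and Neto (-0.91, adjusted p = 0.00535) were called. A different response of GluRIIA and GluRIID with and without the driver was thus not shown.

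Between Act88F-GS-Gal4 thoraces and elav-GS-Gal4 heads, 11.3% of 11388 genes were more positive in thoraces and 17.3% more negative. GluRIIA was more positive in thoraces (0.35, SE 0.10, adjusted p = 0.0311) and Neto more negative (-0.90, SE 0.30, adjusted p = 0.0478). The GluRIIA call held in 8 of 11 other settings but in only 1 of 12 fits with a library left out, the fit without head control replicate 2, and its value stayed between 0.26 and 0.38. The Neto call held in 3 of 11 settings and in 2 of 12 fits, those without head control replicate 3 and without Act88F-GS-Gal4 control replicate 1. Without Act88F-GS-Gal4 control replicate 1 GluRIIA stood at 0.35 (adjusted p = 0.0554) and Neto at -1.11 (adjusted p = 0.0237). The 4 other subunit genes had differences of 0.0721 (GluRIID) to 0.52 (GluRIIB), with adjusted p from 0.216 to 0.696.

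The balance of the competing subunits was compared within libraries as the log2 ratio of GluRIIA to GluRIIB counts. In Act88F-GS-Gal4 thoraces it was 4.91, 4.62 and 5.07 with RU486, against 5.48, 5.30 and 5.23 in controls, so that every RU486 library lay below every control library. The difference was -0.47 (-0.40 without control replicate 1), and the two-sided exact permutation test gave p = 0.1, the smallest value that 3 against 3 samples allow. In w1118 thoraces the ratio averaged 4.61 ± 0.19 with RU486 and 4.98 ± 0.58 in controls (difference -0.38, exact permutation p = 0.4). In elav-GS-Gal4 heads it averaged 4.63 ± 0.46 with RU486 and 4.95 ± 0.16 in controls (difference -0.32, exact permutation p = 0.4). The groups overlapped in both, and over the 3 tests the adjusted exact p were 0.3, 0.4 and 0.4.

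The genes that work with the receptor were described from lists of the synapse. The counts in Act88F-GS-Gal4 thoraces stand beside 12.6% of all genes called higher, 19.9% lower and 32.5% in either direction. Of 21 postsynaptic scaffold and adhesion genes, 4 rose with RU486 and 3 fell, a share close to that of all genes, with a median log2 fold change of 0.12, beside 0.0101 over all genes. Nlg1, a neuroligin of the postsynaptic muscle membrane, fell to 47.8 ± 2.67 CPM with RU486, against 113 ± 20.6 CPM in controls (SD, n = 3 each, log2 fold change -1.23, SE 0.14, adjusted p = 0.00148). This was the largest fall in the list, and the rule for naming required groups without overlap. The membrane guanylate kinase gene metro fell as well (-0.62, SE 0.11, adjusted p = 0.00775). Dys, the muscle dystrophin, was at 343, 338 and 342 CPM with RU486, against 245, 289 and 282 CPM in controls (0.33, SE 0.0865, adjusted p = 0.0297), and the adhesion molecule gene Fas2 rose by a similar amount (0.35, SE 0.10, adjusted p = 0.0418). In w1118 thoraces and in elav-GS-Gal4 heads edgeR called none of the 21, with 3 and 6 at an unadjusted p under 0.05, beside 1194 of 12980 and 2661 of 10653 genes over all.

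BMP signalling from muscle to motor neuron sets the growth of this synapse. In Act88F-GS-Gal4 thoraces 2 of its 9 genes rose and 1 fell (median 0.13), again close to the 32.5% of all genes called. The ligand gene gbb had 51.5, 51.6 and 56.5 CPM with RU486, against 39.9, 43.6 and 45.3 CPM in controls (0.31, SE 0.0746, adjusted p = 0.0217). Dad, an inhibitory Smad that the pathway itself induces, averaged 87.4 ± 3.92 CPM with RU486 and 64.0 ± 2.23 CPM in controls (0.45, SE 0.0643, adjusted p = 0.00326), and the type I receptor gene sax averaged 38.6 ± 1.21 CPM and 47.8 ± 2.74 CPM (-0.31, SE 0.0659, adjusted p = 0.0137). The RU486 and control libraries of these genes were apart because the rule for naming list genes required it, so this adds nothing to the calls.

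Among 13 tested genes known to regulate receptor expression or local translation, 3 rose with RU486 in Act88F-GS-Gal4 thoraces and none fell (median 0.22). Of all genes, 12.6% were called higher and 19.9% lower, 32.5% in either direction. In edgeR 8 of the 13 had an unadjusted p under 0.05, beside 44.0% of all genes. dl, the NF-kappaB factor Dorsal, which controls GluRIIA at the larval junction, averaged 251 ± 64.9 CPM with RU486 and 158 ± 11.2 CPM in controls (0.67, SE 0.18, adjusted p = 0.0353), and did not pass without control replicate 1 (0.72, adjusted p = 0.0617). The poly(A)-binding protein gene pAbp averaged 1570 ± 89.4 CPM and 1180 ± 44.0 CPM (0.40, SE 0.0951, adjusted p = 0.0202). In elav-GS-Gal4 heads, where 5.0% of all genes were higher, dl was the only gene of 13 called (0.62, SE 0.10, adjusted p = 0.0264). It was at 114, 142 and 112 CPM with RU486, against 79.3, 77.9 and 80.8 CPM in controls. A link between the levels of dl and GluRIIA was not tested. Dorsal also acts in Toll signalling of immune tissue, and the libraries do not separate its sources.

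**Figure D4:**
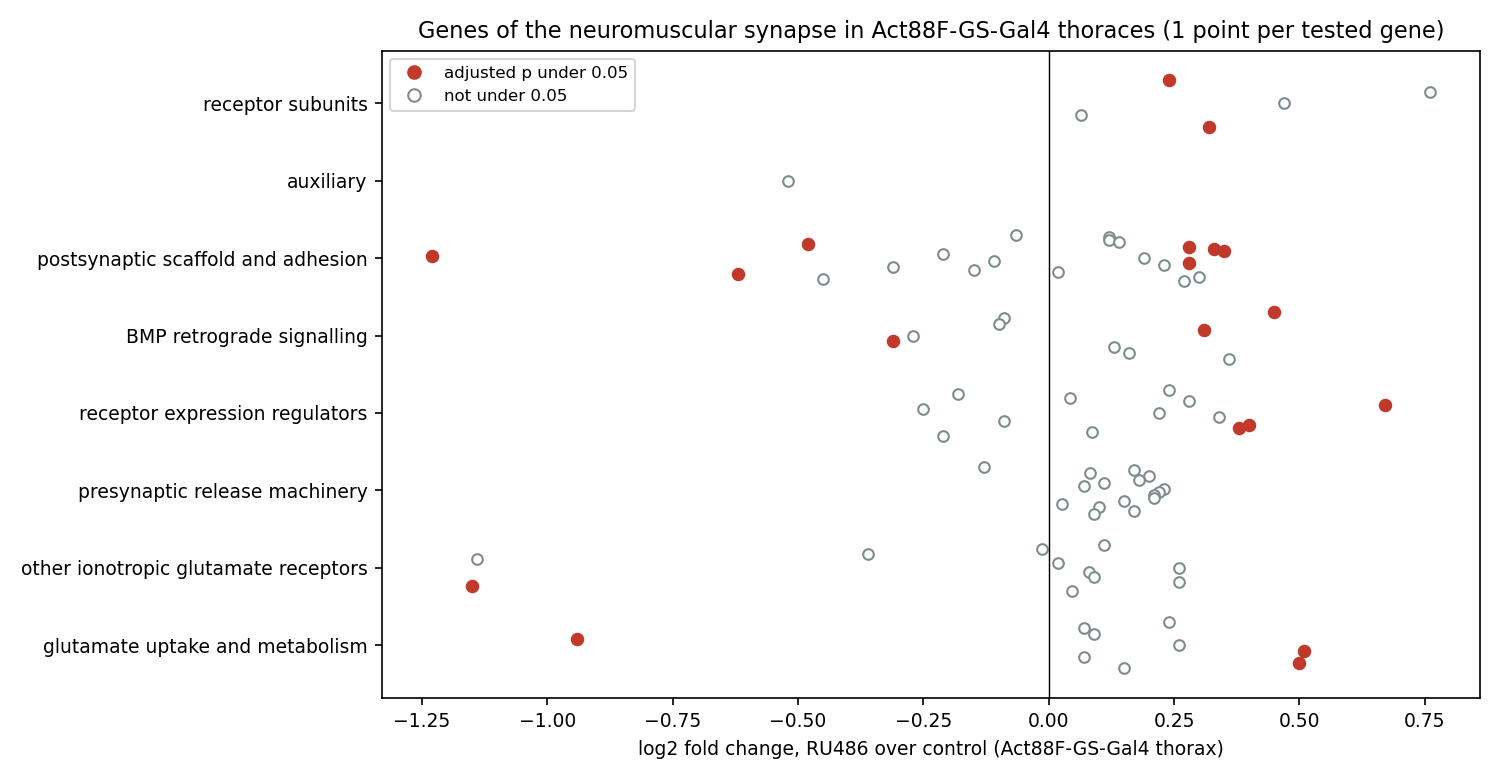
Log2 fold change of RU486 over control in Act88F-GS-Gal4 thoraces for each tested gene of 8 lists, with 1 point per gene and filled points where the adjusted p from edgeR is under 0.05. The receptor subunits lie to the right of 0 (0.0646 to 0.76), the 16 presynaptic genes hold no filled point, and Nlg1 (-1.23) and clumsy (-1.15) lie furthest to the left among the filled points.

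On the neuronal side of the synapse, edgeR called none of the 16 presynaptic release genes in Act88F-GS-Gal4 thoraces, with 1 at an unadjusted p under 0.05 (median 0.16), and none in the other stocks, where 12 in w1118 thoraces and 0 in heads had an unadjusted p under 0.05, beside 1194 of 12980 and 2661 of 10653 genes over all. In w1118 thoraces edgeR also called no gene of the BMP, regulator, other receptor and metabolism lists, with 0, 1, 4 and 1 at an unadjusted p under 0.05. Of 11 other glutamate receptor genes, 1 fell in Act88F-GS-Gal4 thoraces, where 19.9% of all genes did: the kainate-type receptor gene clumsy, at 84.3, 79.0 and 72.1 CPM with RU486, against 162, 184 and 174 CPM in controls (-1.15, SE 0.0862, adjusted p = 0.000362). Of 9 genes of glutamate uptake and metabolism, Got2 (0.51, adjusted p = 0.0122) and Gs2 (0.50, adjusted p = 0.00602) rose and Gdh (-0.94, adjusted p = 0.00624) fell in this stock, close to the 32.5% of all genes called. In heads 3 of these 9 fell, beside 0.779% of all genes, among them Gs1 (-0.69, adjusted p = 0.00583) and Got2 (-0.34, adjusted p = 0.0278). That share over all genes was not stable. With a head library left out, 0 to 2511 genes were called lower, beside 83 in the main fit.

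Without Act88F-GS-Gal4 control replicate 1 the counts of these lists moved. Over all genes, 1347 were then called higher and 2296 lower, beside 1332 and 2112 in the main fit. Of the postsynaptic genes 4 rose and 6 fell, of the BMP genes 2 rose and 2 fell, and of the regulators 2 rose and 2 fell. Of the metabolism genes 3 rose and 1 fell, 1 presynaptic gene (Csp, chosen after its value was seen) fell, and 1 other receptor gene fell. Of the genes named from the lists in this stock, dl was the only one that lost its call. Nlg1 was at -1.38 (adjusted p = 0.000509), Dys at 0.26 (adjusted p = 0.0193), Dad at 0.45 (adjusted p = 0.00663), gbb at 0.26 (adjusted p = 0.0348) and clumsy at -1.19 (adjusted p = 0.000811). For the other named genes of these lists the adjusted p ran from 0.00217 (Got2) to 0.0307 (Fas2).

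The genes most like each member were taken by Pearson correlation of log2 CPM over the 12 thorax libraries, among 9329 genes. These libraries come from 2 stocks and share their scaling, and differences between stocks enter each value. GluRIIA was most like Papst2 (0.98), Amun (0.97) and CG43202 (0.95). GluRIIC was most like CG32667 (0.94), eIF-4E (0.91) and pasha (0.91), and GluRIID like CoRest (0.95), rost (0.94) and the muscle protein gene Mp20 (0.94). GluRIIE was most like Ir, an inward rectifier potassium channel (0.95), Uhg4 (0.95) and edl (0.94). GluRIIB, with its few reads, reached only 0.85 with CG42674 and 0.83 with Rab6 and r-l. Neto was most like CG15753 (0.99), then Rbcn-3B (0.99) and CG42593 (0.98). Among the members themselves the highest value was 0.87, between GluRIIC and GluRIID, and the lowest was -0.85, between GluRIIE and Neto.

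Over all 18 libraries and 9212 genes the nearest genes changed. GluRIIA was then most like bip1 (0.96), CG14823 (0.96) and CG6910 (0.95), GluRIIB like CG1718 (0.84), CG42747 (0.79) and Rpb7 (0.79), and GluRIIC like alphaTub84B (0.92), Mp20 (0.91) and frac (0.91). GluRIID was most like CG17108 (0.89), CG8331 (0.86) and cact (0.86), GluRIIE like CG30051 (0.86), CG1809 (0.84) and CG11700 (0.84), and Neto like CG43154 (0.96), Snoo (0.96) and CG31635 (0.95). None of the nearest 3 genes of a subunit was another subunit in either set of libraries.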

How the data were processed

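From stranded mRNA libraries the authors aligned reads to the Drosophila genome (BDGP5.75 in the study's methods, dm3 in the submitters' processing notes), and HTSeq assigned them to genes. What was deposited for each library is a raw count per gene symbol, without normalization. Between 14.5% and 29.9% of the reads listed per library were not assigned to a gene and were left out. These were reads on no gene, reads shared by several genes, unaligned reads and reads not uniquely aligned. Reads counted on genes ran from 34020840 to 96176923, and replicates of a group differed by more than sampling noise.

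Each stock was fitted with its own 6 libraries, responses of 2 stocks were compared over 12 libraries, and controls were fitted over 9. Genes were filtered with filterByExpr, scaled by TMM and tested with the robust quasi-likelihood test of edgeR 4.0.16 (R 4.3.3), with Benjamini-Hochberg adjustment over all genes tested and a threshold of 0.05. FPKM used exon lengths of BDGP6.54, in which 98% of the symbols were matched. Ratios of counts used a pseudocount of 0.5. The look-alike search used log2 CPM with a prior count of 1 and a mean of at least 1. Tables were made with Python and pandas, and the tests were tried on simulated data first.

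The members and lists were chosen with earlier results of these data known. The 6 members are always named. From each synapse list, the 2 largest rises and 2 largest falls per RU486 comparison are named, among genes with an adjusted p under 0.05 and groups that do not overlap. For each member the 3 genes with the highest correlation are named, and Act88F and CG15753 were named after their values were seen. Muscle, neuron, photoreceptor, glia, testis, fat body and haemocyte markers were summed per library. The 6 glia markers summed to 1050 to 1130 CPM with RU486 and 911 to 1010 CPM in Act88F-GS-Gal4 controls, and the 6 fat body markers to 5940 to 9620 CPM and 4900 to 6700 CPM.

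Alternatives were total counts, upper quartile or DESeq2 size factors in place of TMM, leaving out the filter or replacing it by a minimum mean of 10 counts, the tools limma voom 3.58.1 and DESeq2 1.42.0, an unequal-variance test on log2(FPKM + 1) as in the study's methods, all 18 libraries in 1 fit, testis marker level as a covariate, a block for the replicate number, and fits without each library in turn. Deviations of same-numbered w1118 libraries from their group means correlated at 0.303 to 0.567, against -0.603 to 0.448 for differently numbered ones. The replicate numbers in the labels may thus pair these libraries, but the main fits used no block. With the block edgeR again called 0 genes higher and 0 lower with RU486 in this stock. In the other stocks the numbers did not pair the libraries.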

Additional observations from a re-analysis of the deposited data

Results flagged for a closer look

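For 2 genes the response to RU486 differed between stocks by a test of the difference itself, in edgeR's quasi-likelihood fit over 12 libraries. For GluRIIA the log2 fold change in Act88F-GS-Gal4 thoraces minus that in elav-GS-Gal4 heads was 0.35 (adjusted p = 0.0311), from a rise in thoraces and a value of -0.12 in heads that did not pass the test. For Neto the difference was -0.90 (adjusted p = 0.0478), from -0.52 in thoraces and 0.37 in heads, neither of which passed the test by itself. In these comparisons 28.6% of all genes were called in either direction. The GluRIIA call held in 8 of 11 other settings but in 1 of 12 fits with a library left out. The Neto call held in 3 of 11 settings and in 2 of 12 such fits. Stock, tissue and the cell type that carries the driver cannot be told apart as sources of the difference.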

How the results depend on the processing

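The number of the 5 subunit genes called in Act88F-GS-Gal4 thoraces (2) was 4 with total counts and 0 with no filter, limma voom, the unequal-variance test, the replicate block or the testis covariate, and 0 to 3 with a library left out: 3 without control replicate 1 and 0 without any 1 of the other 5. Same-numbered libraries of this stock correlated at -0.141 to 0.0542, so the block has no pairing behind it. For the response difference to w1118 the count (0) was 2 with total counts and 0 to 1 with a library left out. For that to heads (1) it was 0 with no filter, the block or the testis covariate and 0 to 1 with a library left out. Heads against w1118 controls (2) gave 1 with no filter, the unequal-variance test, the block or the testis covariate and 1 to 2 with a library left out. Heads against Act88F-GS-Gal4 controls (1) gave 3 with total counts or all 18 libraries, 2 with the unequal-variance test, and 1 to 2 with a library left out. Act88F-GS-Gal4 against w1118 controls (0) gave 2 with total counts, the unequal-variance test or all 18 libraries.

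Only log2 fold changes that had not passed the test changed sign. In w1118 thoraces GluRIIA became -0.00591 with total counts, -0.00269 with the unequal-variance test and -0.0179 with the testis covariate. GluRIIC there became 0.00104 with upper quartile, 0.0161 with DESeq2 size factors, 0.0136 with DESeq2 and 0.0143 with the covariate, and -0.13 to 0.0359 with a library left out. In heads GluRIIC became -0.0265 with total counts, -0.0227 with upper quartile, -0.000862 with DESeq2 size factors, -0.00224 with DESeq2 and -0.0196 with all 18 libraries, and -0.0934 to 0.19 with a library left out. GluRIIE in heads became 0.0961 with the covariate and ran from -0.29 to 0.0336 with a library left out. For the response difference to w1118, GluRIIE became 0.13 with total counts, 0.0525 with the unequal-variance test, 0.0237 with all 18 libraries and 0.0656 with the covariate, and -0.17 to 0.00577 with a library left out, where GluRIIB ran from -0.0204 to 0.67. For that to heads GluRIID ran from -0.0112 to 0.11. Heads against w1118 controls gave GluRIIE 0.0556 with no filter and 0.0502 with the covariate, and -0.15 to 0.0889 with a library left out, where Neto ran from -0.0158 to 0.27. Heads against Act88F-GS-Gal4 controls gave GluRIID -0.00456 with upper quartile, -0.0486 with DESeq2 size factors and -0.0563 with DESeq2. Act88F-GS-Gal4 against w1118 controls gave GluRIIA -0.18 with total counts and -0.14 with the unequal-variance test, and GluRIIB -0.68 to 0.0431 with a library left out. The cause of these changes was not tested. Depth limits GluRIIB most, at 8 to 61 reads per library.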
